A study of Mus musculus with 4 samples.

Results

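The 37 genes described here belong to the 4 Hox clusters of the mouse and were measured in cultured embryonic fibroblasts lacking cyclin G1 or cyclin G2. They were taken from the gene features of the array whose name in the scanner files is Hox, a cluster letter from a to d, and a number. They had 49 of 41174 gene probes on the array, or 37 of 27745 distinct names. HoxA, on chromosome 6, had 10 genes and 13 probes. HoxB, on chromosome 11, had 10 genes and 15 probes. HoxC, on chromosome 15, had 8 genes and 9 probes, with no probe named Hoxc11, and HoxD, on chromosome 2, had 9 genes and 12 probes. The symbol of each of the 49 probes matched the current symbol of that gene in RefSeq.

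Mouse embryonic fibroblasts (MEFs) are cells grown out of whole embryos, and per the labels all cultures were of C57BL/6J background, although the source name of the cyclin G2 pair reads C57BL/7J. MEFs from CycG1-/- mice (G1KO), in which the study's methods state that all protein coding exons of Ccng1 were removed, were set against WT MEFs labelled CycG1+/+. MEFs from CycG2-/- mice (G2KO) were set against WT MEFs labelled CycG2+/+. RNA was taken from cells in logarithmic growth. Each of the 4 cultures was a single RNA, read once in the dye Cy5 and once in Cy3 on 2 dye-swapped arrays, so ± is the SD between 2 arrays of the same RNA and no difference has a biological replicate or a p-value. The study's methods take MEFs from mid-gestation embryos, and how many embryos made up a culture was not given in the sources used here.

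Hox genes encode homeodomain transcription factors that give cells their identity along the head-to-tail axis of the embryo. Within a cluster the genes are lined up in the order in which they are expressed, with low paralogue numbers toward the head and high numbers toward the tail and the tips of the limbs. Fibroblasts keep much of the Hox pattern of the body site from which they came when they are grown in culture. In the following, paralogues 1 to 3 are called anterior, 4 to 8 central and 9 to 13 posterior.

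The targeted genes were read first. Ccng1 was lower in G1KO at both of its probes, with log2 ratios of -6.67 ± 0.13 and -4.96 ± 0.08. Both probes were still well above background in G1KO on both arrays. Ccng2 was not reduced in the RNA labelled G2KO, where its probe gave 0.28 on one array and -0.10 on the other. Whether that probe lies in the disrupted part of Ccng2 was not settled from the sources used here, so every direction in this pair rests on the label. Ccng1 was higher in the RNA labelled G2KO, by 2.67 ± 0.03 and 2.49 ± 0.04. All 10 fibroblast markers, among them Col1a1, Vim and Thy1, were above background in all 4 cultures. Xist was higher and Ddx3y, Eif2s3y and Kdm5d were lower in the knockout of both pairs, so that sex-linked differences and genotype cannot be told apart.

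The first result is how differently the pairs stood on the Hox clusters as a whole. A probe was counted as detected in a culture when the scanner's flag put it well above background on both arrays. In G1KO 36 of the 49 Hox probes were detected, or 73.5%, and in its WT 37, or 75.5%, against 60.1% and 59.6% of all gene probes. In the RNA labelled G2KO 8 Hox probes were detected, or 16.3%, and in its WT 4, or 8.16%, against 57.7% and 60.3% of all gene probes. Detected probes stood for 29 genes in each culture of the G1KO pair, but for 8 genes in the RNA labelled G2KO and 4 in its WT. The 4 genes of that WT were Hoxa3, Hoxb3, Hoxb6 and Hoxc4. The RNA labelled G2KO had these and Hoxa2, Hoxa7, Hoxa9 and Hoxb2 besides, and no HoxD gene was detected in either culture of its pair. Of the 6 genes detected in no culture, Hoxa13, Hoxb13, Hoxd11, Hoxd12 and Hoxd13 are posterior genes that act in the limbs, the tail and the genital region, and Hoxb1 is an anterior gene of the hindbrain.

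**Figure D1:**
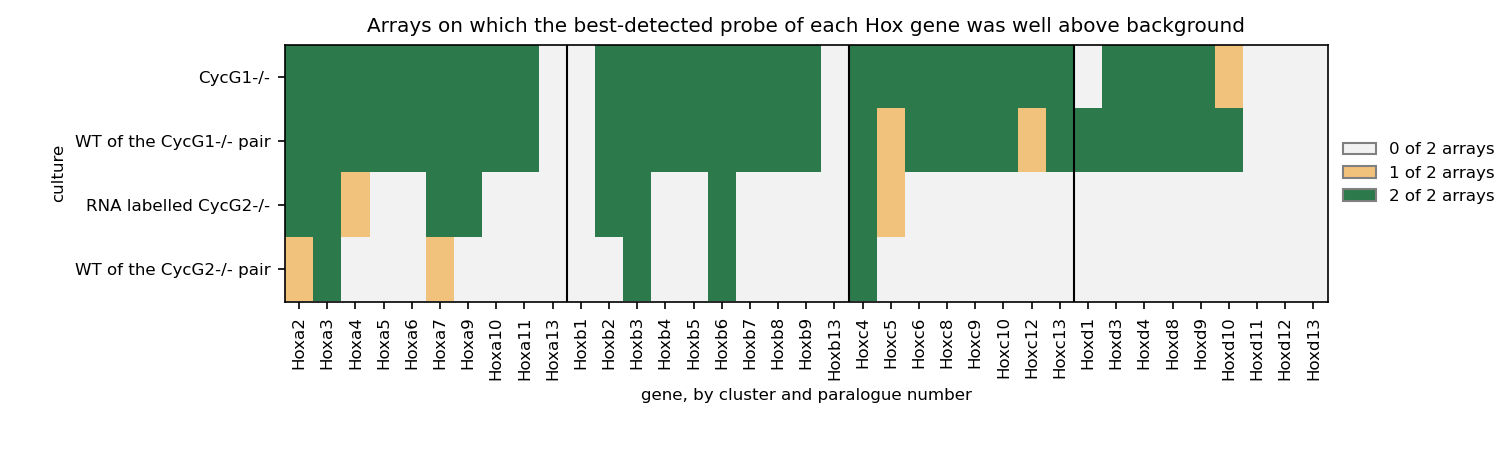
Number of arrays, 0 to 2, on which the best-detected probe of each Hox gene (columns, by cluster and paralogue number) was well above background in each of the 4 cultures (rows). Both cultures of the CycG1-/- pair are filled from Hoxa2 to Hoxa11 and from Hoxb2 to Hoxb9, whereas the cultures labelled for CycG2 have 8 and 4 genes on 2 arrays.

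The cultures of WT cells differed from each other in the same way. Levels, given as log2 of the normalised brightness, can be set against each other between cultures for a given probe but not between probes. A difference between the WT cultures was called where their means lay at least 1 apart and both readings of one lay above both of the other. Of 37 Hox probes tested, 28 were called higher in the WT of the G1KO pair, or 75.7%, and 0 were called lower. Over all gene probes 12.1% were called, 5.95% higher and 6.12% lower. All 37 were detected in the WT of the G1KO pair and 33 of them in that WT alone, so the filter on detection by itself leaned the Hox count toward higher. Of the 4 detected in both WT cultures, for Hoxa3, Hoxb3, Hoxb6 and Hoxc4, 1 was called, that of Hoxb3 at 1.07, and the others differed by 0.17, 0.23 and 0.01. The 28 probes stood for 24 genes, and their differences ran from 1.01 to 6.06 with a median of 2.96 on the log2 scale. In 25 of the 28 the WT of the G2KO pair was below background on both arrays, so only a bound is known there. Hoxb7 was at least 38.1-fold higher in the WT of the G1KO pair, Hoxc9 at least 36.3-fold, Hoxd4 at least 43-fold and Hoxb2 at least 62.8-fold. These values compare different arrays and rest on the normalisation between them. Body site, litter and culture of each WT cannot be told apart, and in such bulk RNA fewer cells of a type and less RNA per cell cannot be told apart either.

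Not every Hox probe followed this split. Hoxc4 read between 6.77 and 6.98 in all 8 readings, one Hoxa3 probe between 6.61 and 6.88, and one Hoxb6 probe between 7.35 and 7.80. The other Hoxb6 probe, in contrast, read 11.59 and 11.65 in G1KO and 10.97 and 11.02 in its WT, and was below background in both cultures of the G2KO pair. The other Hoxa3 probe was likewise below background there. Hoxb3 was above background in both cultures of the G2KO pair at its dimmer probe and below it in both at its brightest one. Probes of 1 gene thus disagreed on whether Hoxa3, Hoxb3 and Hoxb6 were present in the G2KO pair.

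**Figure D2:**
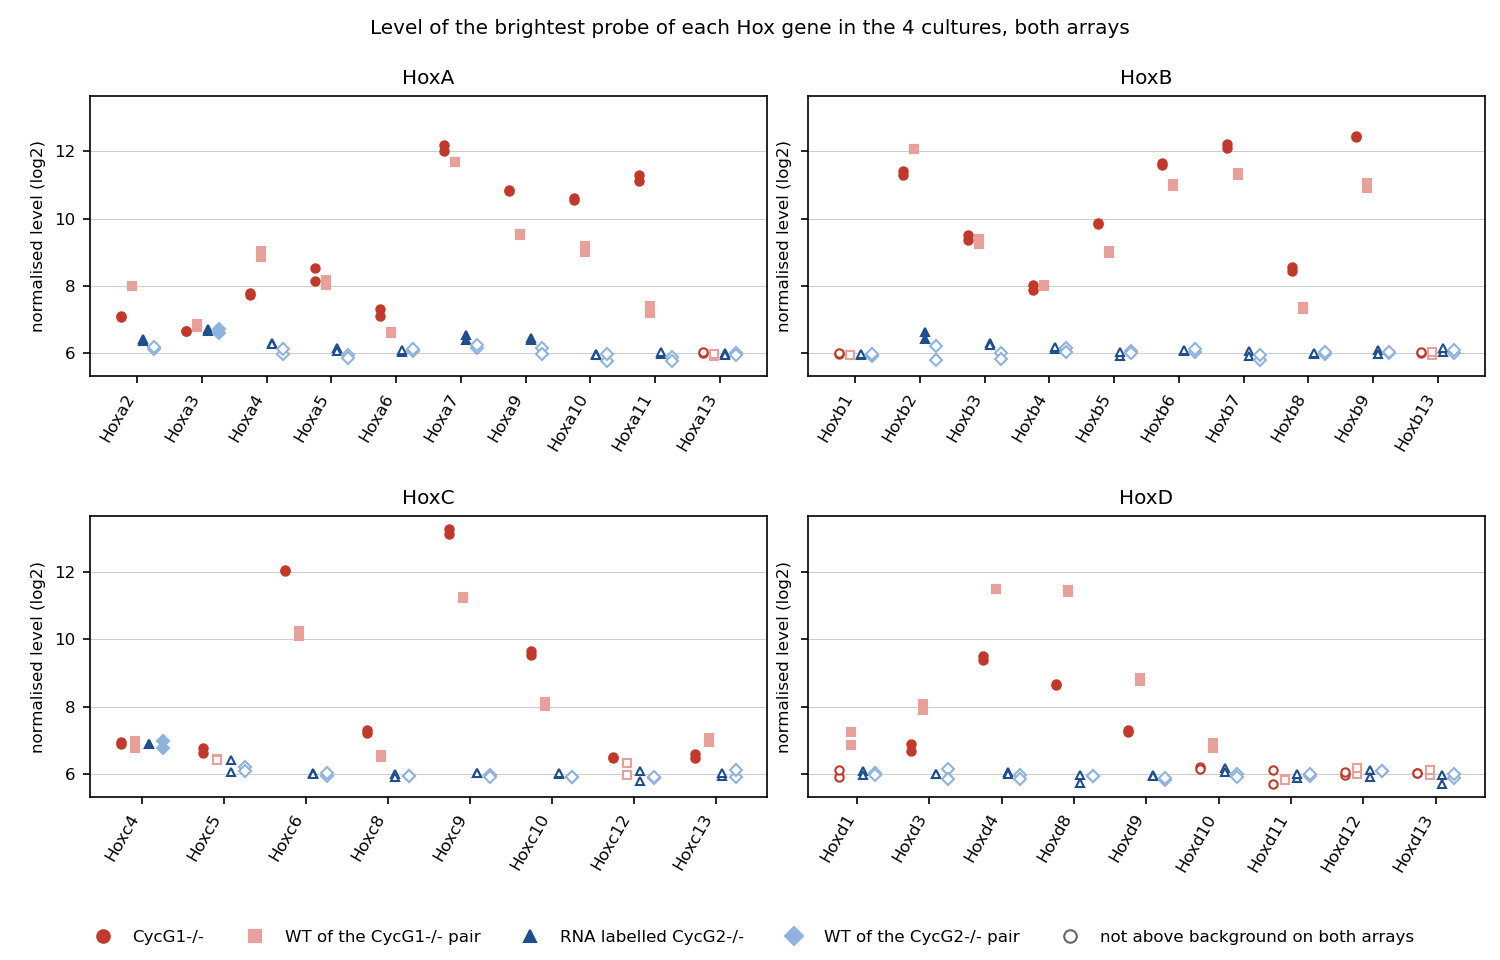
Normalised log2 level (vertical axis) of the brightest probe of each of the 37 Hox genes in the 4 cultures, with both array readings drawn and open symbols for readings of a culture that was not above background on both arrays. Most genes read well above 6 in both cultures of the CycG1-/- pair and near 6 in both cultures labelled for CycG2, whereas Hoxc4 lies between 6.77 and 6.98 throughout.

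Within the G1KO pair the question was which Hox genes differed between the G1KO culture and its WT culture. With 1 culture per genotype, genotype, embryo, body site and culture cannot be told apart in these ratios. A probe was tested where at least 1 genotype was detected, and called where both arrays gave a log2 ratio of knockout over WT of 1 or more, or both of -1 or less. Of the 39 Hox probes tested, which stood for 31 genes, 14 were called, or 35.9%, against 5.79% of all tested gene probes. Higher in G1KO were 9 probes, or 23.1%, for 8 genes, against 1.99% of all probes. Lower were 5 probes for 5 genes, or 12.8%, against 3.80%. These counts moved with the processing, to 4 higher with median centring in place of loess, when the calls of Hoxa9, Hoxa10, Hoxb8 and Hoxb9 were lost, and to 14 higher and 10 lower with the scanner's own ratio. The median log2 ratio over the tested Hox probes was 0.27 and over all tested probes 0.00.

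Over the clusters together the ratio rose with position on the axis, and it also differed by cluster. None of the 9 tested anterior probes was called higher and 1 was called lower, for Hoxd3, with a median of -0.35. Of the 17 central probes 2 were called higher and 3 lower, with a median of 0.27. Of the 13 posterior probes 7 were called higher and 1, for Hoxd9, was called lower, with a median of 1.31. By cluster the medians were 0.24 for HoxA, 0.68 for HoxB, 0.72 for HoxC and -1.21 for HoxD. From anterior to posterior they were -0.35, 0.24 and 1.48 in HoxA, 0.39, 0.73 and 1.53 in HoxB, and -1.12, -2.40 and -0.93 in HoxD. HoxC, with no anterior gene here, gave 0.49 for central and 0.72 for posterior probes. Hoxc5 and Hoxc12, which enter these HoxC medians, were tested only through their detection in G1KO. The filter on detection by itself leaned both toward higher. The median thus changed sign along HoxA alone, and each region pooled a different mix of clusters. Over the brightest probe of each gene, the rank correlation of the log2 ratio with the paralogue number was 0.93 in HoxA (9 genes, Pearson's r 0.89) and 0.95 in HoxB (8 genes, Pearson's r 0.94). It was -0.02 in HoxC (8 genes, Pearson's r -0.15) and 0.03 in HoxD (6 genes, Pearson's r -0.09). The HoxB value took Hoxb2 at -0.72 and Hoxb3 at 0.12. Their other probes gave 0.65 and 0.71, so the anterior end of the HoxB rise rests on the choice of probe. These correlations are descriptions across genes that share the same RNAs and arrays and are not independent of each other.

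**Figure D3:**
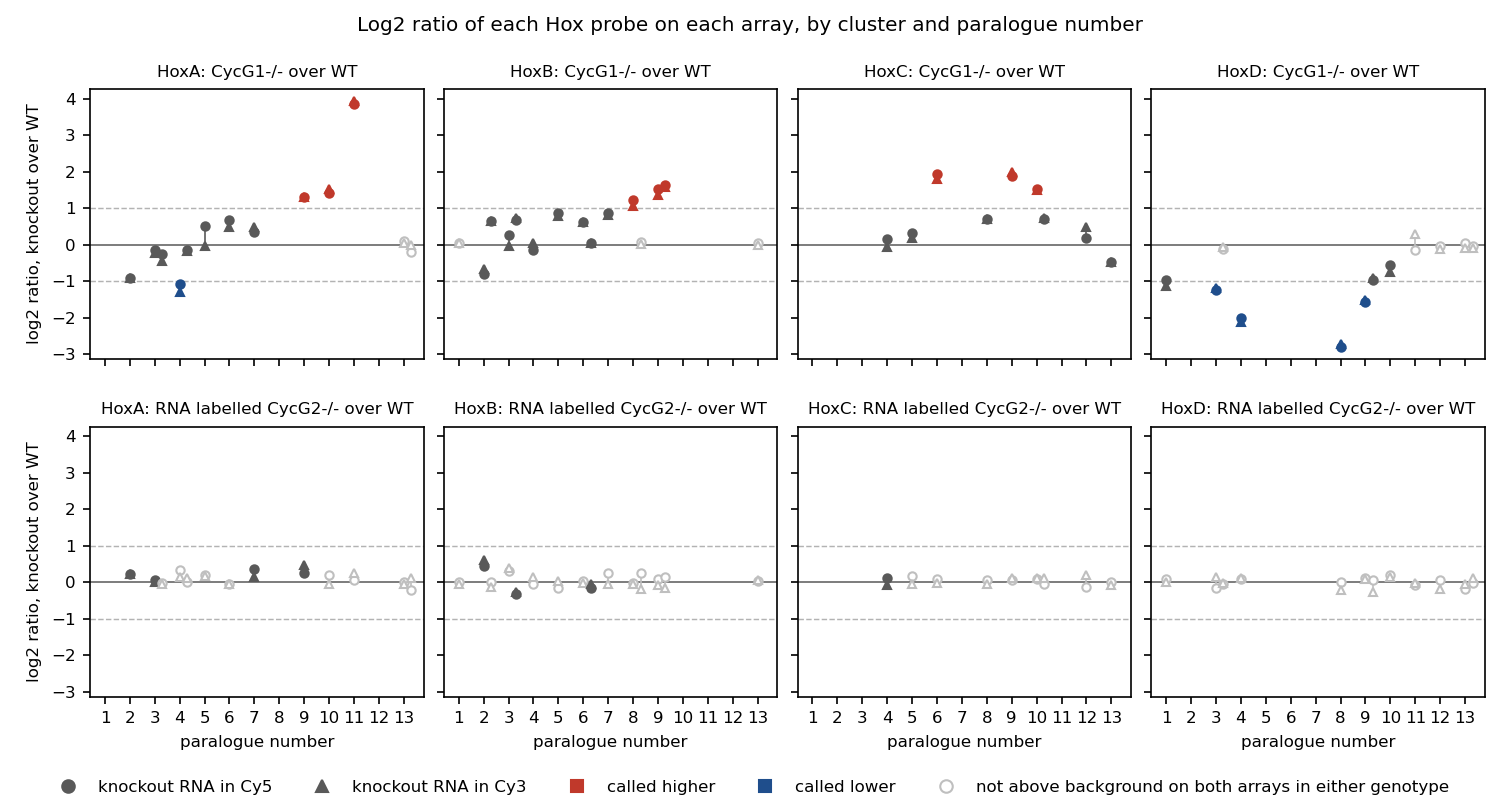
Log2 ratio of knockout over WT (vertical axis) of every Hox probe on each array against its paralogue number, by cluster, for CycG1-/- (top) and the RNA labelled CycG2-/- (bottom), with circles for knockout RNA in Cy5, triangles for Cy3, second probes of a gene moved to the right, and dashed lines at 1 and -1. In the CycG1-/- pair the tested brightest probes of HoxA and HoxB run upward from anterior to posterior, to 3.90 at Hoxa11. The second probes of Hoxb2 and Hoxb3 lie at 0.65 and 0.71. The tested HoxD probes all lie below 0, and in the lower row no tested probe lies past a dashed line.

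In HoxA the ratio passed from lower to higher along the cluster. Hoxa2, which specifies the second pharyngeal arch, gave -0.91 on both arrays and was not called, although with a normexp offset of 16 it was called at -1.13 and with the scanner's own ratio at -1.39. Hoxa4 was lower at its brightest probe, at -1.07 and -1.30, while its other probe, just above background, gave -0.15 and -0.18. The genes in the middle, Hoxa3, Hoxa5, Hoxa6 and Hoxa7, were not called, with mean ratios from -0.35 to 0.58.

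The 3 posterior HoxA genes above background were all higher in G1KO. Hoxa9, a gene best known from blood progenitors and leukaemia, read 10.82 and 10.84 in G1KO against 9.50 and 9.54 in its WT, with log2 ratios of 1.32 and 1.30. Hoxa10, which patterns the uterus and the lumbar spine, gave 1.43 and 1.53, or 2.79-fold. Hoxa11, needed for the forearm and the kidney, read 11.28 and 11.13 in G1KO against 7.41 and 7.19 in its WT. Its log2 ratios of 3.87 and 3.93, or 15-fold, were the largest of any Hox probe in either direction. In the G2KO pair Hoxa10 and Hoxa11 were below background in both cultures, and the level of Hoxa11 in G1KO was at least 36.8-fold that in the RNA labelled G2KO.

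The promoters of the neighbours Hoxa10 and Hoxa11 are shown because both were called higher in the G1KO pair, as was Hoxa9. Their mean log2 ratios differed in size, at 1.48 for Hoxa10 and 3.90 for Hoxa11, with 1.31 for Hoxa9. Each line gives the 250 bases before a transcription start from the RefSeq table of GRCm38.p6, read 5′ to 3′ on the strand of the gene. Capitals would mark matches to TGATTNAT, TGACAG or TTTATG on either strand, letters found in sites of Pbx with Hox, of Meis and of Cdx or posterior Hox proteins, and there were none in these windows. Hoxa10 has 2 starts in the table.
Hoxa11, chr6:52245811-52246060, strand minus: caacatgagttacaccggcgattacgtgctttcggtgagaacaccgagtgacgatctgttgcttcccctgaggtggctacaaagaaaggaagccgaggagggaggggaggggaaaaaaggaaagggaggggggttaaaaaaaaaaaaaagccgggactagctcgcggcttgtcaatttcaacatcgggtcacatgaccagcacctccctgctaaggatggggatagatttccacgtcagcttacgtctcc
Hoxa10, chr6:52240855-52241104, strand minus: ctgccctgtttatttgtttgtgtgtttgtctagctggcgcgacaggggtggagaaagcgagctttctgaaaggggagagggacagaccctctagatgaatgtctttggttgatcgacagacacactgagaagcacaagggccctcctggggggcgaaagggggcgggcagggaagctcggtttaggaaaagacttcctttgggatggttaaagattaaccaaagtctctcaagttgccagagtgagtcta
Hoxa10, chr6:52234940-52235189, strand minus: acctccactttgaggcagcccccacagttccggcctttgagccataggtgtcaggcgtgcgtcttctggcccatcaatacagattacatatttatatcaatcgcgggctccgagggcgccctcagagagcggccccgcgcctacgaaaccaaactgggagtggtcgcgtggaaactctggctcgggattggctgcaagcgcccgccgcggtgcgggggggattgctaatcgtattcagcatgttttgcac
The Hoxa11 window was 52% G or C with 13 CpG dinucleotides, and those of Hoxa10 were 51.6% with 7 and 59.2% with 20. The table held 24 promoters for 22 of the 37 Hox genes, whose median was 12.5 CpG dinucleotides and 58.6% G or C, against 6 and 52.4% over 32851 promoters. TGATTNAT was in 2 of the 24 Hox windows and in 2.82% of all windows, TGACAG in 2 and in 15.9%, and TTTATG in 5 and in 10.8%.

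In HoxB the called genes were the most posterior ones above background. Hoxb8 was higher in G1KO by 1.23 and 1.07, with levels of 8.56 and 8.44 against 7.33 and 7.37. Its other probe was below background in every culture. Hoxb9, a gene of the thoracic region, read 12.45 and 12.41 in G1KO and 10.91 and 11.06 in its WT, and its second probe 11.92 and 12.00 against 10.28 and 10.42. The ratios were 1.45 ± 0.13 and 1.60 ± 0.04, so the probes of this gene gave like values. Between them and the anterior end, Hoxb7 gave 0.88 and 0.83, Hoxb5 0.88 and 0.80, and the brighter Hoxb6 probe 0.62 and 0.63. None of these reached the threshold, and the spread between arrays was at most 0.06 for each.

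Hoxb4, a gene known for expanding blood stem cells, was level between the genotypes, at -0.14 and 0.04. Hoxb3 gave 0.68 and 0.74 at one probe and 0.27 and -0.02 at the other. Hoxb2, which acts in the hindbrain and facial motor neurons, split by probe. The probe for its RefSeq transcript read 11.28 and 11.42 in G1KO against 12.07 and 12.07 in WT, or -0.80 and -0.65. The probe designed on another cDNA gave 0.66 and 0.65, and by its position on build mm8 it runs opposite to the strand of all other HoxB probes. Which transcript the second probe reads was not settled, so Hoxb2 has no single direction here.

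In HoxC the called genes lay in the middle of the cluster and were all higher in G1KO. Hoxc6, a thoracic gene, read 12.03 and 12.04 in G1KO and 10.10 and 10.23 in its WT, with log2 ratios of 1.93 and 1.81, or 3.66-fold. Hoxc9, which sets the thoracic identity of motor neurons, read 13.11 and 13.26 against 11.23 and 11.25, or 3.85-fold. Hoxc10, a gene of the lumbar level and hindlimb, was higher by 1.54 and 1.49 at its brightest probe and gave 0.71 and 0.73 at the other, which was not called. At the ends of the cluster Hoxc4 gave 0.16 and -0.07, and Hoxc13, which acts in hair and nails, gave -0.48 and -0.47. Mean levels in G1KO and its WT were 6.93 and 6.88 for Hoxc4 and 6.69 and 6.42 for Hoxc5. They were 6.49 and 6.15 for Hoxc12 and 6.53 and 7.01 for Hoxc13. These levels were low, and the offset added to dim signals draws ratios there toward 0. The same genes enter the HoxC correlation with paralogue number. Summed on the linear scale over the brightest probe of each gene, the HoxC level was 14432 to 15333 in G1KO and 4292 to 4385 in its WT.

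HoxD went the other way. All 7 tested HoxD probes were below 0 on both arrays, and 4 were called. Hoxd1 and Hoxd10, which were not called, were tested only through their detection in WT. The filter on detection by itself leaned these toward lower, and both enter the HoxD median of -1.21. Hoxd8 read 8.65 and 8.68 in G1KO against 11.45 and 11.39 in its WT, with log2 ratios of -2.79 and -2.71, or 6.74-fold lower. Hoxd4, a gene of the neck region, read 9.49 and 9.37 against 11.49 and 11.48, or 4.16-fold lower. Hoxd3, which patterns the first neck vertebrae, was lower, at -1.23 and -1.18. Hoxd9 was lower, at -1.55 and -1.52 at its brightest probe and gave -0.95 and -0.91 at the other, just short of the threshold. Hoxd1 was above background in WT and below it in G1KO on both arrays, so WT was at least 2.06-fold higher. Hoxd10 gave -0.55 and -0.74, with G1KO above background on 1 of 2 arrays. The summed HoxD level was 1682 to 1696 in G1KO and 6710 to 6782 in its WT, while those of HoxA were 11066 to 11134 and 5982 to 6067, and those of HoxB 18156 to 18339 and 12491 to 12748.

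Paralogues of the same number parted between clusters in G1KO. In paralogue group 9, Hoxa9, Hoxb9 and Hoxc9 were higher and Hoxd9 was lower. In group 8, Hoxb8 was higher by 1.15 ± 0.11, Hoxc8 gave 0.72 ± 0.00 and Hoxd8 was lower, at -2.75 ± 0.06. In group 4, Hoxa4 and Hoxd4 were lower at their brightest probes, while Hoxb4 and Hoxc4 gave -0.05 ± 0.13 and 0.04 ± 0.17. In group 10, Hoxa10 and Hoxc10 were higher and Hoxd10 gave -0.64 ± 0.14.

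The windows before the starts of Hoxd8 and Hoxd4 are shown because these were the HoxD genes with the largest falls. They were read as above, and capitals mark a match to TTTATG.
Hoxd8, chr2:74704365-74704614, strand plus: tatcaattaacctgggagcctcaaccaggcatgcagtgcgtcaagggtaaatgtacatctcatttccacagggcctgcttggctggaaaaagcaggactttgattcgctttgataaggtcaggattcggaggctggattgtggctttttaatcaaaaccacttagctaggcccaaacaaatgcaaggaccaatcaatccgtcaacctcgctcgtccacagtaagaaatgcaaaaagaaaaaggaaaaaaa
Hoxd4, chr2:74721728-74721977, strand plus: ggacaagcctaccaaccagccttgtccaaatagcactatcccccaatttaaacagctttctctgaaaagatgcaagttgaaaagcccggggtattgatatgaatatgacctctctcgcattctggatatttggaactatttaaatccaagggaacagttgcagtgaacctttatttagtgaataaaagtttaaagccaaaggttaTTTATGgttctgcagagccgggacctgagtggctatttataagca
The Hoxd8 window was 44.4% G or C with 6 CpG dinucleotides, and that of Hoxd4 40.4% with 3, both under the median of the Hox windows. The single match in these windows was TTTATG in Hoxd4. Such a match is a run of letters and not a site shown to be bound.

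Other transcripts within the clusters, found by the position of their probes on build mm8, were read next. There were 9 such probes in the 4 clusters, of which 4 were tested in the G1KO pair. Both probes of Hoxd3os1, a transcript antisense to Hoxd3, were lower in G1KO, like the HoxD genes around them. One gave -1.85, and the other was below background in G1KO on both arrays, so WT was at least 2.12-fold higher there. One probe of Hoxaas3, a transcript lying in HoxA and named antisense although its probes run on the strand of the HoxA genes, was higher by 1.35. Hoxaas2, at the anterior side of HoxA, gave -0.96 and was not called. Levels of an antisense transcript and its partner were told apart only by the strand on which the probe was designed.

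In the stretches beside the clusters no probe was called in the G1KO pair. Within 500 kb of the outermost Hox probes lay 105 other probes, of which 74 were tested in the G1KO pair. Called were 0, against 5.79% of all tested gene probes, with a median log2 ratio of 0.01. Medians by cluster were -0.14 beside HoxA, 0.03 beside HoxB, 0.08 beside HoxC and -0.17 beside HoxD. Among the genes next to HoxD, Mtx2 came closest to the threshold, with a mean of -0.96 ± 0.16, and Evx2, next to Hoxd13, gave -0.15 ± 0.23. In the G2KO pair 71 of the 105 were tested, 1 was higher and 2 were lower, the latter both for Copz2, against 2.31% and 4.06% of all tested gene probes. Between the WT cultures, listed neighbours of the clusters were compared, and some of these lie beyond 500 kb. Such were Snx10 and the Tax1bp1 probe used for HoxA, and Hnrnpa3, Atp5g3, Atf2 and Chn1 for HoxD. Called higher in the WT of the G1KO pair were Snx10 and Skap2 beside HoxA and Mtx2 beside HoxD, by 1.06, 1.41 and 1.16. These were 2 of 4 tested genes beside HoxA and 1 of 6 beside HoxD, with 0 of 6 beside HoxB and 0 of 5 beside HoxC. Over all gene probes 5.95% were called higher.

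**Figure D4:**
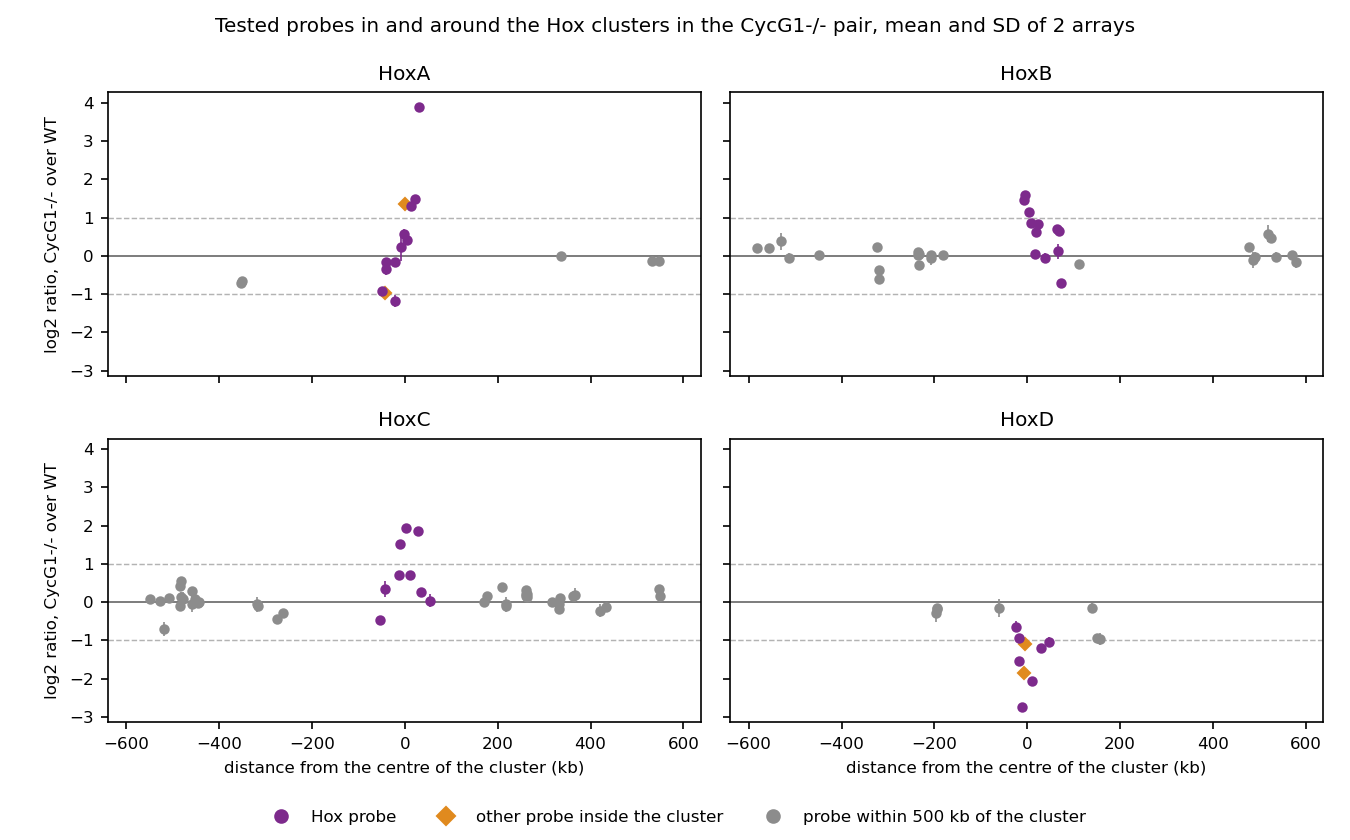
Log2 ratio of CycG1-/- over WT (vertical axis, mean of 2 arrays with SD bars) of tested probes against their distance in kb from the centre of each Hox cluster, with Hox probes, other probes inside the cluster and probes within 500 kb drawn apart and dashed lines at 1 and -1. All 74 outer probes lie between the dashed lines, and the probes past them are Hox genes, Hoxd3os1 and Hoxaas3.

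Genes that work with or upon the Hox clusters were counted from lists. The homeodomain partners of Hox proteins, Pbx, Meis and Prep, had 8 of 8 genes tested and 0 called in either pair. Of 18 Polycomb genes, which keep Hox genes silent, and 9 genes of the trithorax group and the H3K27 demethylases, which act against Polycomb, 0 were called in either pair. With 5.79% and 6.37% of all tested gene probes called, lists of this size could hold few calls, and a count of 0 near that background is no result about these genes. Between the WT cultures, where 12.1% of all gene probes were called, Meis2 was higher in the WT of the G1KO pair by 1.38, and Meis1, at -1.22, and the Polycomb genes Cbx6, at -1.17, and Cbx7, at -1.22, were lower there. The Polycomb median was 0.27 in G1KO and 0.30 in the G2KO pair. Among 7 genes that act upstream of Hox genes, Cdx1, Cdx2, Cdx4 and T were below background in all cultures. Egr2, a regulator of Hox genes in the hindbrain, was higher in G1KO, by 1.65 ± 0.06. Egr2 is also an early response gene to serum in fibroblasts.

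Markers of other cells moved in the G1KO pair and also in the G2KO pair. Of 10 mesothelial markers, 10 were detected in both cultures of the G1KO pair. In G1KO 7 were lower and 1, Krt19, was higher, against 3.80% and 1.99% of all tested gene probes. The summed linear level of the 10 markers was 54085 to 63462 in G1KO and 231324 to 286668 in its WT. Lower were Wt1 at -3.04, Upk3b at -4.25, Upk1b at -5.51, Msln at -2.79, Lrrn4 at -5.92, Muc16 at -4.46 and Krt8 at -1.14. In the G2KO pair Wt1, Upk3b, Upk1b, Krt8, Lrrn4 and Muc16 were below background in both cultures. Msln was above background in both, at levels of 11.82 and 10.22, and was higher in the RNA labelled G2KO, at 1.60. Krt19 was also above background in both and was lower in the RNA labelled G2KO, at -1.40. The summed level was 4078 to 4425 in the RNA labelled G2KO and 1995 to 2054 in its WT. By summed level mesothelial markers thus stood higher in the pair in which most Hox genes were detected, and their part in the Hox results was not tested. In the other lists, for neural and glial, muscle, endothelial, blood, cartilage and bone, and epithelial cells, 4 markers were called in G1KO. In that order the lists had 6, 2, 2, 4, 6 and 3 tested genes, and 5.79% of all tested gene probes were called. Nes, of neural progenitors, was higher at 2.34 and Sox9, of cartilage, at 1.32, and Emcn, of endothelium, was lower at -2.65 and Krt14, of basal epithelium, at -2.09, and their part was not tested either. Of the fibroblast markers 1 of 10 was called in G1KO, Pdgfrb, at 1.09 ± 0.01. In the RNA labelled G2KO 6 of 10 were lower, against 4.06% of all tested gene probes.

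In the G2KO pair 8 Hox probes were tested, for Hoxa2, Hoxa3, Hoxa7, Hoxa9, Hoxb2, Hoxb3, Hoxb6 and Hoxc4. None was called, against 6.37% of all tested gene probes, of which 2.31% were higher and 4.06% lower. The ratios lay between -0.29 and 0.53. Hoxb2 read 6.65 and 6.43 in the RNA labelled G2KO and was below background in its WT, or at least 1.36-fold higher, and Hoxa9 was at least 1.28-fold higher. These levels were low, since Hoxb2 read 12.07 on both arrays in the WT of the G1KO pair. With the scanner's own ratio, which adds no offset to dim signals, Hoxb2 gave 3.83, Hoxa9 2.64 and Hoxa2 1.78 in the RNA labelled G2KO, and all of these then passed the threshold. Hoxb4, Hoxb7 and Hoxb9 were below background in both cultures, so no ratio is given. The median of the tested Hox probes was 0.13, and over all tested probes it was -0.01. Hoxa2, Hoxa7, Hoxa9 and Hoxb2 were tested only through their detection in the RNA labelled G2KO, and over the 4 probes detected in both cultures the median was -0.03.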

How the data were processed

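The arrays were Agilent whole-genome mouse arrays of 45018 spots, 4 on 1 slide and read in 1 scan, which leaves no slide or scan batch to model. The pairs were separate cultures that never shared an array, so any batch of culture or RNA cannot be told apart from the pair. Labelling started from oligo-dT and made cRNA with Cy3 or Cy5, per the labels. Spot values came from the authors' run of Feature Extraction, whose version reads 10.5.1.1 in the file headers and 9.1 in the submitters' processing notes. The deposited intensity values are the mean brightness of each spot and the median background around it, on a linear scale and not normalised. The authors also deposited the log10 ratio of the scanner software, after its own background subtraction and dye normalisation, in the scanner files and again in the series table.

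In limma 3.58.1 (R 4.3.3) the intensities were corrected with normexp at an offset of 50, control spots and 114 to 203 outlier spots per array were left out, and each array was normalised by loess. Spots of a probe were averaged, ratios were turned to knockout over WT, and the dye-swapped arrays of a pair were counted as 1 replicate. Levels came from loess followed by Aquantile. Correlations between the arrays of a pair over the tested probes were 0.952 and 0.959, and precision is limited by the number of arrays. No spot was saturated. Of the 43379 gene spots per array, 25366 to 27757 were well above background per channel.

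Where a culture was below background on both arrays, the fold is a bound, taken as the mean of the brighter culture against, per array, the higher of the dim probe and the lowest signal well above background. Each culture was read once in each dye, which offsets a dye effect in these means. With 1 culture per genotype no test was run and no p-value is given. Each gene was represented by its brightest probe where 1 value is given. Per-array values are given for genes called at that probe and for Hoxa2, Hoxb2, Hoxb4, Hoxb7 and Hoxb9, which the study text names, with others by range or as next to them in a cluster. Probe positions are on mm8 (NCBI36), and promoters on GRCm38.p6. A gene that fits the naming rule and 2 genes of the lists are not reported here. The members, the gene lists and the alternatives were chosen with earlier results of these data known, and the motifs and the 500 kb windows after seeing the data. Alternatives changed the offset, loess, the source of the ratio, outlier spots, the filter, the threshold, the array and the probe. Figures were drawn with matplotlib 3.10.9.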

Additional observations from a re-analysis of the deposited data

Results flagged for a closer look

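Of the Hox probes tested in both pairs, 5 gave ratios above 0 on both arrays of one pair and below 0 on both arrays of the other. None of these was called in either pair, and the difference between the pairs was not tested. Hoxa2 gave -0.91 in G1KO and 0.23 in the G2KO pair. The Hoxb2 probe for its RefSeq transcript gave -0.72 and 0.53 in the same order, with the WT of the G2KO pair below background. One Hoxb3 probe gave 0.71 and -0.29. One Hoxa3 probe gave -0.17 and 0.04, and one Hoxb6 probe gave 0.06 and -0.09, so the ratios of these last probes stayed near 0.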

How the results depend on the processing

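In the G1KO pair 9 Hox probes were called higher and 5 lower, with a median of 0.27. An offset of 16 called 8 lower, with a median of 0.43. Median centring without loess called 4 higher, and the calls of Hoxa4, Hoxa9, Hoxa10, Hoxb8, Hoxb9 and Hoxd3 were lost because 1 array missed the threshold, while their means of -1.13, 1.35, 1.53, 1.20, 1.49 and -1.18 were past it. The scanner's ratio and the series table, which is the same ratio, each called 14 higher and 10 lower with a median of 0.50. A threshold of 2 left 1 higher and 2 lower. The median was 0.50 with both genotypes above background and 0.06 without a filter on dim probes. The calls of Hoxa4, Hoxc10 and Hoxd9 were lost at their other probe, at -0.17, 0.72 and -0.93. Hoxb2 turned to 0.65 at its other probe, and Hoxb4 to 0.00 with the scanner's ratio and the series table and ran from -0.14 to 0.04 with single arrays.

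In the G2KO pair the scanner's ratio and the series table called 4 Hox probes higher, with a median of 0.80. The median of 0.13 was 0.24 with an offset of 16 and 0.04 without a filter, and turned to -0.03 with both genotypes above background. With 3 SD of the negative controls above the local background as the limit of detection, 14 Hox probes were detected in the RNA labelled G2KO and 9 in its WT. With the mean plus 3 SD, a limit chosen after seeing the data, these were 10 and 4. The cause of these differences was not tested. The count of 28 Hox probes higher in the WT of the G1KO pair was 27 to 28 under its alternatives. No paired analysis was possible because the replicate numbers mark a dye swap of the same RNA and each genotype had 1 culture.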
